A study of Sus scrofa with 37 samples.

Results

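Bama minipigs are a breed of small pig, and RNA of their skeletal muscle after contusion was compared between 48 h and 24 h. The comparison used the 4 libraries labelled as injured at 48 h and the 4 labelled as injured at 24 h, 8 of the 37 libraries of a time course that also had injured muscle from 4 to 20 h, and it was made over all genes of the deposited count table, of which 9411 were tested. Contusion is a blunt mechanical injury of muscle. The background was given by 9 libraries labelled as control. Mechanical damage is the labelled treatment of the controls as well as of the injured libraries, and what was done to control muscle is not stated in the labels. Skeletal muscle was taken from 8 minipigs, and their ages, sexes and the muscle sampled are not stated either. As 37 libraries came from 8 animals, some share an animal, the labels do not say which, and p-values measure the spread between libraries.

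Within the first days after a contusion, damaged fibres are broken down, blood monocytes enter and become macrophages that clear debris, and muscle stem cells, called satellite cells, begin to divide and later fuse into new fibres. Surviving fibres meanwhile respond to stress and to circulating glucocorticoids by breaking down protein through the ubiquitin and proteasome pathway and autophagy, a response of which the muscle ubiquitin ligases TRIM63 (MuRF1) and FBXO32 (atrogin-1) are the classical markers. RNA of genes for mitochondria and slow-twitch contraction reflects both how much oxidative fibre a sample holds and how strongly that fibre expresses them. In bulk tissue, fewer cells of a type and less RNA per cell cannot be told apart.

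Libraries of 24 h summed to between 9.91 and 22.88 M counts, those of 48 h to between 9.86 and 11.07 M and controls to between 10.33 and 12.29 M. Values below are CPM, counts relative to the library total scaled by TMM (trimmed mean of M-values), given for replicates 1 to 4 in that order, and controls are given by their range over 9 libraries. Of the muscle markers, creatine kinase CKM was abundant in all 8 libraries, at 11952, 13760.2, 5516 and 10456 CPM at 24 h and 5592, 26933, 9554 and 19036 CPM at 48 h. The 4 libraries of 48 h were not alike. Taken over all genes, the root mean square log2 distance from the control mean was 1.161, 0.519, 0.966 and 0.383 in 48 h replicates 1 to 4, against 0.418 to 0.638 for single controls and 0.923 to 1.303 at 24 h. Thus 48 h replicates 2 and 4 lay at the distance of a control, while replicates 1 and 3 lay within the range of 24 h. The share of counts on mitochondrially encoded genes divided them likewise, at 12.3% and 14.7% in replicates 2 and 4 and 8.58% and 8.68% in replicates 1 and 3. Libraries also fell into 5 sets by expression features that no label names. All libraries of 48 h were in set 5, while 24 h replicates 1 to 4 were in sets 5, 3, 2 and 3. Set and time were thus partly confounded. The set numbered 3 was that of libraries with totals above 20 M.

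Between 24 and 48 h, 964 genes rose and 868 fell by edgeR's quasi-likelihood test at an adjusted p under 0.05, which is 10.2% and 9.22% of the 9411 genes tested. These shares are the background for the counts of list members with all libraries below. By at least 2-fold, 554 of these were higher and 230 lower. Most of the called genes lay outside the control range in all libraries of 24 h and overlapped it at 48 h. Of the 964 genes that rose, 670 lay below all 9 controls in all 4 libraries of 24 h and overlapped the control range at 48 h. Of the 868 that fell, 574 lay above all controls at 24 h and overlapped them at 48 h, and 15 were still above all controls at 48 h. Among all 9411 genes, called or not, 1357 lay below all controls at 24 h and overlapped them at 48 h. Another 1444 lay above all controls at 24 h and overlapped them at 48 h. All 4 libraries of 48 h were above all 4 of 24 h for 537 of the genes that rose, and below them for 688 of those that fell. Over all genes tested, 9.07% had every library of 48 h above every library of 24 h and 10.5% had every one below.

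The calls depended on which libraries of 48 h were counted. Without 48 h replicates 2 and 4, 287 genes were higher (3.05%) and 264 lower (2.8%), and of these 191 and 244 were also called with all libraries. Without replicates 1 and 3, an alternative chosen after the data were seen, 1462 were higher (15.5%) and 1417 lower (15.1%). As the pairs were chosen for their distance from the controls, these counts describe which libraries carry a change and are not independent tests. In all 3 fits 117 genes were higher and 208 lower. Leaving out 1 of the 8 libraries at a time gave 1048 to 2442 calls. The lowest count was without 48 h replicate 4 and the highest without 48 h replicate 1. Without 24 h replicates 1 to 4 in turn, 758, 816, 693 and 614 genes were higher and 805, 777, 784 and 625 lower. Without 48 h replicates 1 to 4 in turn, 1273, 666, 941 and 513 were higher and 1169, 570, 750 and 535 lower. These counts, of 9413 to 9415 genes tested, are the background for list members with 1 library left out. The fall of the stress and protein breakdown genes, the rise of oxidative genes and the rise of mitotic genes depended on different libraries and are taken in turn.

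Single genes induced by glucocorticoids or tied to muscle wasting were lower in every library of 48 h than in any of 24 h, while most members of their lists were not called. TSC22D3 (GILZ, chromosome X, 88171325 to 88233583 in Sscrofa11.1), a leucine zipper protein induced directly by the glucocorticoid receptor, had 951, 1063, 702 and 1264 CPM at 24 h and 345, 303, 333 and 284 CPM at 48 h. The groups did not overlap, and the libraries of 48 h lay within a narrow band above the control range of 142 to 251 CPM. Its log2 change was -1.65 ± 0.20 (standard error, adjusted p = 4.7e-06), and -1.55 ± 0.26 without replicates 2 and 4. FKBP5, a co-chaperone that dampens glucocorticoid receptor activity, was at 209, 299, 271 and 298 CPM and then 123, 121, 102 and 85.0 CPM. All libraries of 48 h were below all of 24 h, and its control range was wide (86.8 to 272 CPM). The log2 change was -1.32 ± 0.26 (adjusted p = 0.00062). GLUL, which makes glutamine from glutamate and ammonia, fell from 2313, 2068, 1909.7 and 2691 to 614, 1147, 571 and 1418 CPM. Here replicates 1 and 3 were the lower pair at 48 h, and the log2 change of -1.26 ± 0.24 became -1.92 ± 0.26 without replicates 2 and 4. The metallothionein MT1A, a metal-binding protein with near-identical copies whose counts are uncertain, fell from 5.86, 6.60, 0.786 and 6.23 CPM to 0.429, 0.521, 0.154 and 0 CPM, where 3 counts in a library are 0.184 to 0.313 CPM. Of the 17 tested members of the glucocorticoid list, 5 fell and 1 rose, with a median log2 change of -0.10 against 0.04 over all genes, so the fall is one of single members.

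TRIM63 (chromosome 6, 83493200 to 83507471), the ubiquitin ligase that targets sarcomere proteins, had 4180.0, 2994, 3774 and 5574 CPM at 24 h and 1560.5, 502, 913 and 461 CPM at 48 h. All libraries of 48 h were lower, replicate 1 least, and replicates 2 and 4 were within the control range of 252 to 623 CPM. The log2 change was -2.27 ± 0.40 (adjusted p = 0.00022), -1.74 ± 0.47 without replicates 2 and 4. FBXO32 (chromosome 4, 15895875 to 15925929), the substrate receptor of the other classical wasting ligase, went from 1372, 1294, 1172 and 1605 to 611, 367, 496 and 309 CPM. Its groups did not overlap and its log2 change was -1.61 ± 0.33 (adjusted p = 0.0011), which missed the threshold without replicates 2 and 4 (-1.30 ± 0.42, adjusted p = 0.059). FBXO30 (MUSA1), a further ubiquitin ligase of atrophy, fell from 344 to 465 CPM to 130.4 to 193 CPM with a log2 change of -1.31 ± 0.23 (adjusted p = 0.00023). TRIM54 (MuRF3), a microtubule and sarcomere ligase of the TRIM63 family, was at 251, 255, 240.2 and 252 CPM at 48 h, a nearly constant level, from 767, 669, 629.5 and 774 CPM at 24 h. Its log2 change was -1.51 ± 0.26 (adjusted p = 0.00017) and equally large without replicates 2 and 4 (-1.53 ± 0.34). The polyubiquitin gene UBB (chromosome 12, 59171258 to 59172841), whose repeats and copies make counts uncertain, fell from 2468, 2737, 2495 and 4355 CPM to 479.9, 651, 232 and 766 CPM. The log2 change of -2.50 ± 0.34 (adjusted p = 1.3e-05) was -3.08 ± 0.44 without replicates 2 and 4, since replicates 1 and 3 were the lowest at 48 h. Over the wasting and FOXO list, 5 of 22 tested members fell and 4 rose, with a median of -0.20, beside 9.22% of all genes that fell and 10.2% that rose. Without replicates 2 and 4 the counts were 4 and 1. With all libraries but 1, the 4 that rose became 1 without 24 h replicate 3, 1 without 48 h replicate 2 and 1 without 48 h replicate 4.

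The time course of the group means placed these falls late. TRIM63 had a mean of 891 ± 368 CPM (SD, n = 4) at 4 h. It was 4518 ± 1151 CPM at 16 h, 4157 ± 1025 CPM at 20 h and 4130.4 ± 1081 CPM at 24 h before the 859 ± 510.1 CPM of 48 h. Its level was thus high from 16 to 24 h, and the mean at 48 h lay within its SD of the control mean of 436 ± 110.1 CPM (n = 9). UBB had 1740.3 ± 304 CPM at 16 h, 3014 ± 902 at 24 h and 532 ± 232 at 48 h, against 713 ± 194 in the controls. TSC22D3 went from 412 ± 120.1 CPM at 20 h and 995 ± 234 at 24 h to 316 ± 27.8 at 48 h, above its control mean of 205 ± 36.4 CPM.

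**Figure D1:**
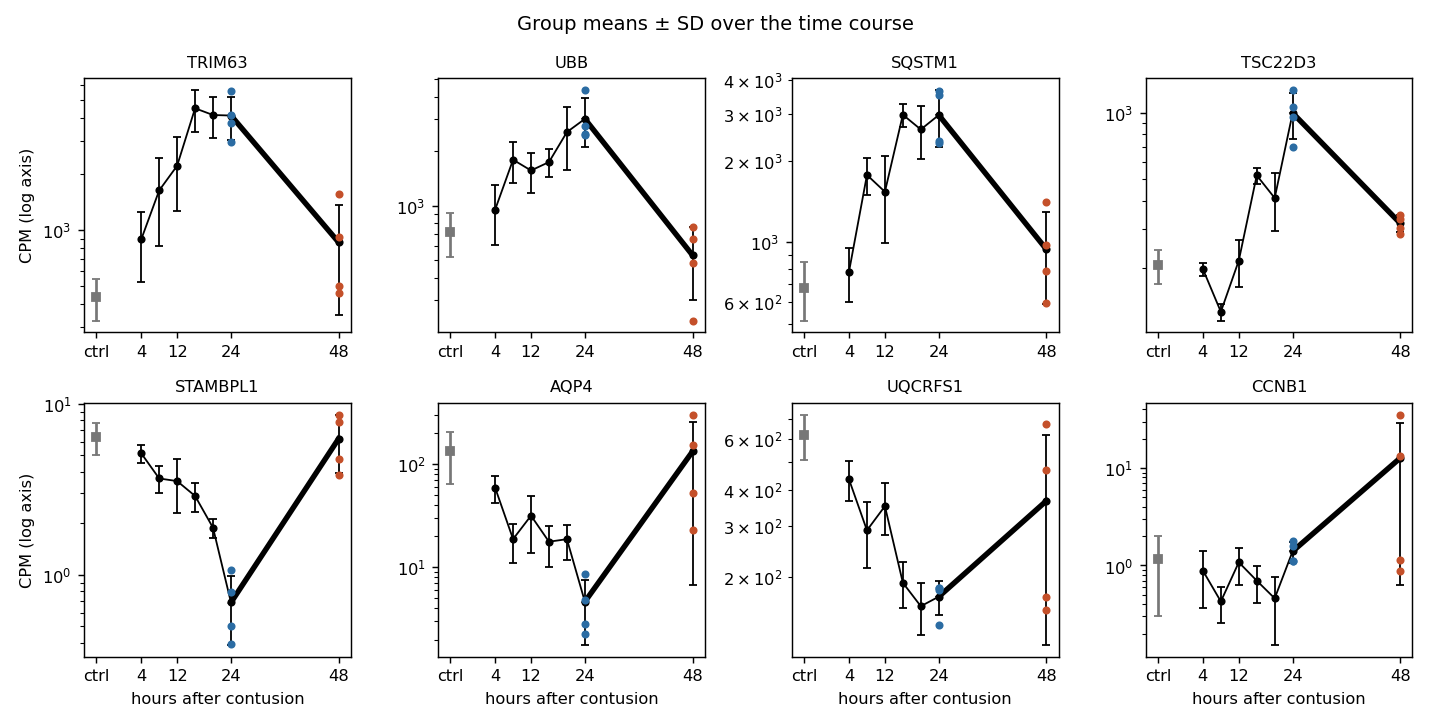
Mean CPM ± SD on a log axis at each time (control, n = 9; injured, n = 4 libraries) of 8 genes, with single libraries of 24 and 48 h as coloured points; the 24 to 48 h step is drawn thicker. TRIM63, UBB, SQSTM1 and TSC22D3 drop after 24 h, while CCNB1 and AQP4 spread widely at 48 h; lower bars that would reach 0 are shortened for the log axis.

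Subunits of the proteasome, the barrel-shaped protease that degrades ubiquitin-tagged proteins, fell together by a smaller amount. Of 29 tested members 16 fell and none rose, beside 9.22% of all genes that fell, and the median log2 change was -0.46 with a range from -0.87 to 0.17. The 16 became 10 without 24 h replicate 4 and 9 without 48 h replicate 4. PSMA5, a subunit of the outer ring of the catalytic core, had 154, 200.2, 173 and 204 CPM and then 121, 87.4, 121 and 71.7 CPM, a log2 change of -0.87 ± 0.17 (adjusted p = 0.00062). Replicates 1 and 3 sat between 24 h and the controls (62.9 to 104 CPM), and replicates 2 and 4 within them. PSMD1, the large scaffold subunit of the regulatory cap, was at 211, 173, 206 and 112 CPM at 48 h and 265 to 329 CPM at 24 h (log2 -0.75 ± 0.15). The ATPase subunit PSMC1 and the cap subunit PSMD12 gave -0.74 ± 0.16 and -0.72 ± 0.16. Without replicates 2 and 4, 1 proteasome subunit was called as lower, and the median was -0.34.

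Autophagy genes moved in both directions, 6 down and 4 up of 28, beside 9.22% of all genes that fell and 10.2% that rose. The 6 became 3 without 48 h replicate 2, and the 4 became 2 without 24 h replicate 3, 2 without 48 h replicate 2 and 1 without 48 h replicate 4. SQSTM1 (p62, chromosome 2, 78752768 to 78763998), the receptor that links ubiquitinated cargo to the autophagosome, was at 2331, 3510.3, 2373 and 3633 CPM and then at 1412, 781, 979 and 598 CPM. No libraries overlapped, and the log2 change of -1.65 ± 0.27 (adjusted p = 0.00011) held without replicates 2 and 4 (-1.31 ± 0.32, adjusted p = 0.014). ATG16L1, which directs lipidation of LC3 on the growing membrane, fell from 43.6 to 47.8 to 28.1 to 33.5 CPM (log2 -0.61 ± 0.14). RETREG1 (FAM134B), a receptor for autophagy of the endoplasmic reticulum, fell from 751, 499, 480.5 and 778 CPM to 119.9, 75.4, 54.3 and 102 CPM. All 4 libraries of 48 h were far below 24 h, at a level inside the control range of 45.6 to 612 CPM, with a log2 change of -2.84 ± 0.61 (adjusted p = 0.0015). In contrast TFEB, the master transcription factor of lysosome and autophagy genes, rose from 28.4, 27.8, 11.6 and 18.0 to 31.1, 84.2, 44.5 and 71.9 CPM (log2 1.43 ± 0.30, adjusted p = 0.0011), and the autophagy-starting kinase ULK2 by 0.78 ± 0.21. For both the highest libraries were replicates 2 and 4, and neither was called without them. ULK2 missed the threshold without 48 h replicate 4 alone (adjusted p = 0.055).

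RNA of some genes for protein folding and ribosome making was also lower at 48 h. No member rose and 11 of 31 tested heat shock proteins and chaperones fell, with a median log2 change of -0.60. The 11 became 7 without 24 h replicate 4, 5 without 48 h replicate 2 and 6 without 48 h replicate 4. HSPB8, a small heat shock protein that works with BAG3 in clearing damaged sarcomere proteins, went from 5157, 4306, 6100.2 and 6601 CPM to 2632, 1175, 1789 and 562 CPM. Replicate 4 was below all controls (629.9 to 1323 CPM), the other three were not, and the log2 change was -1.85 ± 0.38 (adjusted p = 0.0011). CCT2 and CCT6A, subunits of the chaperonin that folds actin and tubulin, changed by -1.01 ± 0.22 and -0.81 ± 0.21, and HSPA13, an HSP70 family member of microsomes, by -1.17 ± 0.33. No chaperone was called without replicates 2 and 4, where the median was -0.45. ZFAND2A (AIRAP, chromosome 3, 756427 to 776028), a proteasome adaptor induced by arsenite and heat, had 103, 112, 80.6 and 117 CPM and then 19.5, 8.86, 6.87 and 4.64 CPM. Its groups were far apart, and the log2 change of -3.36 ± 0.66 (adjusted p = 0.00064) was -2.96 ± 0.85 without replicates 2 and 4. HSPA13 missed the threshold without 48 h replicate 4 alone (adjusted p = 0.062).

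Ribosome biogenesis factors, which process ribosomal RNA and assemble subunits in the nucleolus, fell in 17 of 36 tested members and rose in none, with a median of -0.70 and a highest value of -0.08, so that every tested member had a negative log2 change. The 17 became 10 without 24 h replicate 3. TSR1, a maturation factor of the small subunit (chromosome 12, 48404306 to 48417622), was at 59.1, 67.2, 74.3 and 75.6 CPM and then 30.3, 26.0, 20.4 and 19.8 CPM (log2 -1.52 ± 0.27, adjusted p = 0.00024). RRP12, an export factor of both subunits, was at 67.8, 73.4, 81.0 and 68.0 and then 41.3, 37.2, 37.3 and 40.1 CPM (log2 -0.90 ± 0.17), and the RNA polymerase I subunit POLR1B at 53.3, 52.9, 52.0 and 49.9 and then 34.3, 33.3, 34.3 and 29.8 CPM (log2 -0.66 ± 0.16). In these the libraries of 48 h lay close together, including replicates 1 and 3. PES1, needed for large subunit processing, was less uniform, at 71.7, 37.4, 49.0 and 33.6 CPM against 78.8 to 97.3 CPM at 24 h. Without replicates 2 and 4, 3 members were called and the median was -0.50. Of 45 tested cytosolic ribosomal proteins, by comparison, 2 fell and none rose, with a median of 0.07.

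Genes of translation fell in 9 and rose in 2 of 35 tested members, beside 9.22% of all genes that fell and 10.2% that rose. Their median was -0.21. TARS3, a cytosolic threonyl-tRNA synthetase, was at 15.3, 17.0, 19.2 and 25.7 CPM and then 4.35, 2.29, 4.32 and 0.676 CPM, with a control range of 0 to 0.989 CPM (log2 -2.70 ± 0.64, adjusted p = 0.0032). YARS1, which charges tyrosine, changed by -0.82 ± 0.19, and EIF6, which keeps large subunits from joining too early, by -0.66 ± 0.15, while QARS1, which charges glutamine, rose by 0.62 ± 0.16. The list for unfolded proteins and amino acid shortage had 5 of 36 members lower and none higher, near the 9.22% of all genes that fell. Its median was -0.13. The count of 5 became 3 without 24 h replicate 1, 3 without 24 h replicate 3, 11 without 48 h replicate 1, 2 without 48 h replicate 2, 3 without 48 h replicate 3 and 2 without 48 h replicate 4. SLC3A2, the shared heavy chain of amino acid exchangers, fell from 219, 166, 59.9 and 160.3 to 40.2, 74.9, 32.7 and 62.0 CPM, most in replicates 1 and 3 (log2 -1.53 ± 0.30, adjusted p = 0.00063, and -2.05 ± 0.38 without replicates 2 and 4). SEL1L, of the membrane complex that removes misfolded proteins, changed by -0.86 ± 0.18. Single genes of nuclear and RNA functions had some of the smallest p-values of the comparison. MCRS1, a nuclear protein of chromatin complexes, was at 51.9, 55.4, 54.0 and 66.7 and then 25.4, 27.4, 26.3 and 24.3 CPM (log2 -1.14 ± 0.14), and RTCB, the tRNA-splicing ligase, at 129, 129.7, 114 and 134 and then 80.6, 50.3, 59.6 and 41.9 CPM (log2 -1.12 ± 0.14). RCC1, the nucleotide exchange factor of the nuclear transport GTPase Ran, changed by -1.35 ± 0.18, the zinc transporter SLC30A6 by -1.09 ± 0.14 and the membrane protein TMEM185B by -1.22 ± 0.16.

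The interleukin-6 receptor and its transcription factor were lower in every library of 48 h. IL6R, the ligand-binding chain of the interleukin-6 receptor, was at 145, 85.8, 92.2 and 120.5 CPM and then 30.2, 31.2, 19.0 and 30.6 CPM, within or just below its control range of 20.9 to 37.2 CPM. Its log2 change was -2.00 ± 0.37 (adjusted p = 0.00039) and -2.17 ± 0.50 without replicates 2 and 4. STAT3 (chromosome 12, 20407316 to 20471091), the transcription factor activated by that receptor family, was at 402, 247, 320.1 and 329 CPM and then 134, 103, 95.5 and 78.6 CPM (log2 -1.66 ± 0.33, adjusted p = 0.00068). NFKB2, the precursor of the p52 subunit of NF-kB, changed by -1.01 ± 0.30, while LIFR, the receptor of leukaemia inhibitory factor, rose by 0.95 ± 0.31 through replicates 2 and 4 (47.9, 120.2, 72.4 and 151 CPM at 48 h, 42.8 to 63.9 CPM at 24 h). The NF-kB and SOCS list had 5 of 21 members lower and 1 higher. Its 5 became 2 without 24 h replicate 2, 3 without 24 h replicate 4, 2 without 48 h replicate 2 and 2 without 48 h replicate 4. TIMP1, the secreted inhibitor of matrix metalloproteinases, fell from 308, 243, 405 and 363 CPM to 134, 45.6, 103 and 21.1 CPM. Replicates 1 and 3 stayed above the control range of 7.50 to 18.9 CPM by a wide margin, and without replicates 2 and 4 the log2 change of -2.11 ± 0.54 was -1.47 ± 0.63 (adjusted p = 0.17). CD9, a tetraspanin of cell fusion and adhesion, was at 745, 807, 774 and 1269 CPM and then 265, 185, 251 and 119 CPM, above its control range of 37.7 to 115 CPM in all 4 libraries (log2 -2.13 ± 0.40, adjusted p = 0.00048). LOXL4, a lysyl oxidase that cross-links collagen, went from 234, 54.4, 71.1 and 159 to 49.9, 17.4, 20.1 and 9.27 CPM (log2 -2.41 ± 0.56). NFKB2 missed the threshold without 24 h replicate 2 or 48 h replicate 2 or 4, each alone (adjusted p = 0.054 to 0.083). LIFR missed the threshold without 24 h replicate 1, 2 or 4 or 48 h replicate 2 or 4, each alone (adjusted p = 0.054 to 0.18).

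The largest falls included enzymes and transporters of metabolism. PCK1 (chromosome 17, 57930507 to 57936523), the cytosolic enzyme that commits to glucose or glycerol synthesis, was at 21.1, 9.72, 5.36 and 11.2 CPM at 24 h and 0.674, 0.729, 0.463 and 0.966 CPM at 48 h. The 4 libraries of 48 h were alike and inside the control range of 0.110 to 3.71 CPM, and the log2 change was -4.06 ± 0.76 (adjusted p = 0.00045), -4.34 ± 1.05 without replicates 2 and 4. SLC16A9, a carnitine and creatine transporter, was at 25.7, 12.8, 9.79 and 11.1 and then 2.39, 2.19, 1.39 and 1.45 CPM (log2 -2.99 ± 0.46, adjusted p = 6.6e-05). AMPD3, the deaminase that turns AMP into IMP, had 992, 1026, 1091 and 1242 CPM and then 375, 135, 191 and 59.0 CPM. Every library of 48 h was lower, yet 3 of the 4 remained above the highest control of 89.2 CPM (log2 -2.52 ± 0.63). HK2, the inducible muscle hexokinase, fell from 691, 169.8, 301 and 325 to 76.5, 141, 77.3 and 160.5 CPM (log2 -1.71 ± 0.47, adjusted p = 0.0097), and ALDOC, an aldolase of glycolysis, from 23.8 to 31.8 to 5.94 to 10.6 CPM (log2 -1.77 ± 0.40). The lipid chaperone FABP4 changed by -1.42 ± 0.37. Among receptors, MST1R (RON), the tyrosine kinase receptor of macrophage-stimulating protein, was at 45.5, 44.3, 44.9 and 64.6 and then 13.6, 8.23, 10.0 and 4.92 CPM, still above its controls (0.984 to 4.02 CPM), a log2 change of -2.43 ± 0.41. GPRC5A, a retinoic acid-induced receptor, changed by -2.67 ± 0.58, the G protein regulator RGS8 by -2.50 ± 0.57, the zinc transporter SLC30A3 by -2.88 ± 0.75, and GALNT15, which starts mucin-type glycans, by -2.46 ± 0.52. SPAG11, an epididymal defensin-like gene, changed by -2.50 ± 0.53 from a low level (7.09 to 21.9 CPM), and the lipase ABHD2 by -2.40 ± 0.73. HK2 missed the threshold without 24 h replicate 1 alone (adjusted p = 0.066). ABHD2 missed the threshold without 48 h replicate 2 or 4, each alone (adjusted p = 0.058 to 0.067).

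Some rises were carried by all 4 libraries of 48 h. STAMBPL1 (chromosome 14, 100798096 to 100859576), a deubiquitinase that cuts lysine-63 ubiquitin chains, had the smallest p-value of the comparison. It was at 0.796, 1.06, 0.500 and 0.396 CPM at 24 h and 7.79, 3.85, 8.64 and 4.73 CPM at 48 h. Replicates 1 and 3 were the highest here, and the controls ran from 3.71 to 8.56 CPM, so 24 h lay below them and 48 h at their level. The log2 change was 3.16 ± 0.32 (adjusted p = 1.3e-07), 3.55 ± 0.32 without replicates 2 and 4 and 2.62 ± 0.33 without replicates 1 and 3. MSI2 (chromosome 12, 33537163 to 33974845), a Musashi RNA-binding protein, was at 16.2, 18.8, 18.2 and 15.0 and then 32.5, 51.7, 40.2 and 48.6 CPM (log2 1.34 ± 0.16, adjusted p = 4.2e-06). ST3GAL6, which adds sialic acid to glycans, was at 17.2, 14.8, 17.7 and 16.1 and then 38.3, 70.4, 47.2 and 81.1 CPM (log2 1.85 ± 0.24, adjusted p = 7e-06). For both, every library of 48 h was above every library of 24 h, and replicates 2 and 4 were the higher pair.

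Proteins that tie the fibre's cytoskeleton to its membrane rose in 5 of 24 tested members of the dystrophin and integrin list, none fell, and the median was 0.28. SGCD (delta-sarcoglycan, chromosome 16, 66447982 to 67481709), a membrane subunit of the dystrophin complex, was at 36.0, 37.6, 17.9 and 20.3 CPM and then 74.9, 159, 119 and 134 CPM. All of 48 h were above all of 24 h and 3 of the 4 were within the controls (80.1 to 190.3 CPM), with a log2 change of 2.12 ± 0.31 (adjusted p = 3.6e-05) that held without replicates 2 and 4 (1.79 ± 0.35, adjusted p = 0.0018). DTNA (alpha-dystrobrevin) rose from 87.2, 78.6, 44.7 and 79.0 to 120.0, 280.0, 177 and 270.1 CPM (log2 1.55 ± 0.26) and SNTB1 (beta-1 syntrophin) from 23.5, 20.0, 13.4 and 13.2 to 60.4, 189.7, 88.8 and 70.7 CPM (log2 2.55 ± 0.55). AQP4 (chromosome 6, 111407632 to 111422169), the water channel of fast fibres that syntrophin anchors at the membrane, was at 8.68, 4.80, 2.29 and 2.84 CPM and then 22.9, 154, 52.4 and 303 CPM. The 4 libraries of 48 h spread over a wide range, 2 of them below the control range of 64.5 to 295 CPM, and the log2 change of 4.85 ± 0.63 (adjusted p = 7.7e-06) was 3.03 ± 0.54 without replicates 2 and 4. ITGB1BP2 (melusin), an integrin-binding muscle protein, rose through replicates 2 to 4 (5.15, 22.8, 10.0 and 37.6 CPM from 3.00 to 7.24 CPM), with replicate 1 among the 24 h values.

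Other large rises without overlap, chosen by their size, were of genes of mixed function. At 24 h all of them but SBK2 lay below all 9 controls. SBK2, a kinase related to one of the heart, was at 0.145, 0.733, 0.143 and 0.108 CPM at 24 h, low levels of which replicate 2 had the highest, and at 8.95, 0.938, 3.09 and 227 CPM at 48 h, most of it in replicate 4 (fitted log2 change 7.53 ± 1.68, and 4.23 ± 1.49 without replicates 2 and 4). KBTBD13, a thin-filament protein of muscle, had 0.434, 0.257, 0 and 0.0360 CPM and then 0.490, 7.92, 1.78 and 18.0 CPM, and its fitted change of 5.25 ± 0.99 rests on a 24 h level of few counts and is no bound. TECRL, LGI1 and ROS1 were highest in replicate 4 (4.54, 12.1, 2.39 and 76.6, then 0.674, 2.19, 0.695 and 19.1 and 1.72, 5.42, 1.54 and 28.9 CPM for the 3 genes). GADL1, a decarboxylase of muscle amino acids, was at 27.4, 11.4, 13.2 and 18.0 and then 57.7, 668, 135 and 332 CPM (log2 4.09 ± 0.77). ALPK2, an alpha-kinase of striated muscle, was at 9.70, 5.72, 1.64 and 2.30 and then 24.4, 72.8, 56.2 and 139 CPM (log2 3.92 ± 0.61, and 3.07 ± 0.63 without replicates 2 and 4). ST8SIA5, a sialyltransferase of gangliosides, rose by 3.97 ± 0.60, the integrin subunit ITGB6 by 3.49 ± 0.65, the neuronal leucine-rich repeat protein LRRN1 by 3.26 ± 0.61, the single-pass membrane protein SMCO1 by 3.37 ± 0.55 and FSD2, a fibronectin and SPRY domain protein, by 3.19 ± 0.60. Of the genes from GADL1 on, SMCO1 was not called without replicates 2 and 4, and the other six were, with log2 changes from 2.06 to 3.07. SBK2 missed the threshold without 48 h replicate 4 alone (adjusted p = 0.082).

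Immediate early genes, the transcription factors that respond within minutes to stimuli, rose in 6 of 24 members with a median of 0.76. The 6 became 3 without 48 h replicate 4. The orphan nuclear receptor NR4A1 was at 73.4, 106, 69.0 and 56.6 CPM and then 183, 692, 497 and 821 CPM, the 48 h values lying within its control range of 88.6 to 859.6 CPM (log2 2.85 ± 0.57, adjusted p = 0.00082). EGR3 rose from 0.941, 2.38, 3.36 and 1.58 to 5.82, 15.1, 12.6 and 23.3 CPM (log2 2.77 ± 0.56), and NR4A2 by 1.60 ± 0.36. These 3 were called without replicates 2 and 4 too, whereas KLF4 was not (1.40 ± 0.34 with all libraries and 0.62 ± 0.36 without that pair). PLK2, a polo-like kinase induced by p53 and serum, was at 51.7, 58.7, 59.5 and 47.3 and then 112, 159, 138 and 211 CPM (log2 1.51 ± 0.30, adjusted p = 0.00078). EGLN3, the oxygen-sensing prolyl hydroxylase that is itself induced by hypoxia, was at 13.8, 28.6, 26.7 and 19.2 and then 63.5, 55.0, 54.7 and 65.4 CPM (log2 1.43 ± 0.31, adjusted p = 0.0017). KLF4 missed the threshold without 48 h replicate 4 alone (adjusted p = 0.053).

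Interferon-response genes rose in 5 and fell in 1 of 25 tested members, with a median of 0.68. The 5 became 3 without 24 h replicate 4 and 3 without 48 h replicate 4. IFI44 had 6.15, 5.02, 3.79 and 4.03 CPM and then 19.6, 10.1, 12.2 and 10.6 CPM, the highest in replicate 1 (log2 1.47 ± 0.27, adjusted p = 0.00041). USP18, which removes the ubiquitin-like ISG15, rose by 1.05 ± 0.29, and the double-stranded RNA sensor IFIH1 (MDA5) by 0.92 ± 0.26, both called without replicates 2 and 4. At 24 h, IFI44 lay below all its controls and IFIH1 at or below the low end of its controls (6.35 to 17.2 and 8.17 to 17.9 CPM). The chemokines CXCL9 and CXCL10, which attract T cells, were at 7.36, 8.65, 18.9 and 9.37 and 21.8, 5.00, 13.0 and 4.83 CPM at 48 h, from 2.82, 3.30, 1.22 and 2.05 and 3.26, 6.01, 2.14 and 2.27 CPM at 24 h. Their log2 changes were 2.22 ± 0.55 and 1.70 ± 0.54, and CXCL10 was highest in replicates 1 and 3. BLVRA, which reduces the haem product biliverdin to bilirubin, rose from 7.60, 8.65, 6.65 and 7.96 to 14.5, 17.5, 14.8 and 15.9 CPM (log2 1.02 ± 0.20, adjusted p = 0.00067). CXCL10 missed the threshold without 24 h replicate 1, 3 or 4 or 48 h replicate 1, each alone (adjusted p = 0.056 to 0.13).

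Nuclear-encoded genes of mitochondrial respiration rose, and replicates 2 and 4 carried the rise. Of 47 tested nuclear-encoded subunits of the respiratory chain 24 rose and none fell, beside 10.2% of all genes that rose, with a median log2 change of 0.78 and a range from 0.21 to 1.27. The 24 became 15 without 24 h replicate 1, 5 without 24 h replicate 3, 14 without 24 h replicate 4, 40 without 48 h replicate 1, 8 without 48 h replicate 2 and 0 without 48 h replicate 4. At 24 h, 43 of the 47 were below all 9 controls. Among all 9411 genes, 1357 were below all controls at 24 h and overlapped them at 48 h. UQCRFS1, the iron-sulfur subunit of complex III, was at 181, 184, 137 and 184 CPM and then 155, 469, 171 and 673 CPM. Replicates 2 and 4 were within the control range of 438 to 763 CPM while replicates 1 and 3 were among the 24 h values. Its log2 change was 1.10 ± 0.29 (adjusted p = 0.0083) with all libraries and -0.08 ± 0.24 without replicates 2 and 4. ATP5F1D, of ATP synthase, had the same division, at 157, 465, 199 and 596 CPM at 48 h. Without replicates 2 and 4 none of the 47 was called, with a median of -0.21, and without replicates 1 and 3, 45 were, with a median of 1.38. Of 12 tested mitochondrially encoded respiratory genes, by comparison, none rose and 1 fell, with a median of 0.27. The tricarboxylic acid cycle gave 13 of 21 members higher, then 0 without replicates 2 and 4 and 20 without replicates 1 and 3. The 13 became 2 without 24 h replicate 3, 8 without 24 h replicate 4, 2 without 48 h replicate 2 and 2 without 48 h replicate 4. DLAT, a subunit of the pyruvate dehydrogenase complex, had 72.2, 74.3, 53.2 and 68.3 and then 69.3, 204, 76.4 and 234 CPM (log2 1.12 ± 0.25), and succinate dehydrogenase subunit SDHB 205, 196, 131 and 185 and then 143, 496, 180.4 and 616 CPM (log2 1.00 ± 0.29). UQCRFS1 missed the threshold without 48 h replicate 4 alone (adjusted p = 0.13). SDHB missed the threshold without 24 h replicate 3 or 48 h replicate 2 or 4, each alone (adjusted p = 0.060 to 0.17).

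Fatty acid genes rose in 16 and fell in 2 of 31 tested members. The 16 became 10 without 24 h replicate 3, 9 without 48 h replicate 2 and 1 without 48 h replicate 4. Without both 48 h replicates 2 and 4, 1 member was higher and none lower, with a median of 0.0031. SLC27A1, a fatty acid transport protein of muscle, was an exception to the division of the libraries, at 18.2, 17.2, 8.72 and 12.0 CPM and then 28.6, 74.6, 51.7 and 115 CPM. All of 48 h were above all of 24 h, and the log2 change of 2.26 ± 0.40 was 1.51 ± 0.42 without replicates 2 and 4 (adjusted p = 0.027). PLIN5, a coat protein of lipid droplets next to mitochondria, had 7.31, 2.46, 0.357 and 1.01 and then 5.21, 26.1, 5.02 and 83.7 CPM, with replicates 1 and 3 inside the range of 24 h. ETFDH and ACAA2, enzymes of beta-oxidation, rose by 1.30 ± 0.31 and 1.49 ± 0.35. Among regulators of oxidative metabolism, PERM1, a muscle partner of the coactivator PGC-1, was at 9.84, 4.58, 2.79 and 4.14 CPM and then 11.7, 77.5, 13.4 and 134 CPM (log2 3.47 ± 0.59, adjusted p = 0.00017). The coactivator PPARGC1B and the lipid-sensing receptor PPARA rose by 2.04 ± 0.42 and 2.17 ± 0.50. TFAM, the packaging and transcription factor of mitochondrial DNA, fell instead, from 74.8, 94.0, 108 and 116 to 65.9, 65.7, 59.5 and 59.0 CPM (log2 -0.65 ± 0.15, adjusted p = 0.0021), uniformly over the libraries. TFRC, the transferrin receptor that takes up iron, was at 25.9, 18.6, 46.4 and 17.6 and then 71.7, 251, 58.0 and 537 CPM (log2 3.08 ± 0.66). The glucose transporter SLC2A4 (GLUT4) rose from 89.3, 73.8, 20.7 and 38.5 to 45.8, 385, 114 and 589 CPM (log2 2.35 ± 0.53), and the lactate exporter SLC16A3 from 26.7, 16.7, 3.93 and 11.1 to 43.9, 257, 62.4 and 174 CPM (log2 3.20 ± 0.73). Apart from SLC27A1, no gene given here as rising was called without replicates 2 and 4, PERM1 (adjusted p = 0.14), PPARA (0.29), PPARGC1B (0.35), TFRC (0.26), SLC2A4 (0.61) and SLC16A3 (0.15) among them. ETFDH, ACAA2 and PPARA missed the threshold without 48 h replicate 4 alone (adjusted p = 0.054, 0.076 and 0.057 in turn). PPARGC1B kept its call without 48 h replicate 4 alone, with a log2 change of 1.35.

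Slow fibre genes followed replicate 4 most. The slow myosin heavy chain MYH7 was at 1466, 1025, 1060.2 and 660.5 CPM at 24 h and 1495, 4967, 1016 and 11827 CPM at 48 h, with a control range of 2451 to 39021 CPM. All 4 libraries of 24 h and 48 h replicates 1 and 3 were below this range, and 48 h replicates 2 and 4 were within it. Of 14 tested slow fibre genes 7 rose, with a median of 1.41, which became 1 and -0.22 without replicates 2 and 4. The 7 became 4 without 24 h replicate 2, 4 without 24 h replicate 4 and 3 without 48 h replicate 4. ATP2A2, the calcium pump of slow fibres, had 555, 399, 419 and 311 and then 759.7, 2596, 886 and 6269.8 CPM (log2 2.64 ± 0.55, adjusted p = 0.0011), and the myosin-binding protein MYBPC1 593, 499, 392 and 423 and then 728, 3188, 986 and 8845 CPM (log2 2.85 ± 0.59). TNNI1, slow troponin I, and MYH7B rose by 2.10 ± 0.61 and 3.00 ± 0.79. Of 13 fast fibre genes 1 rose, the myosin light chain kinase MYLK2 (214, 100.1, 37.2 and 80.5 and then 94.0, 1138, 362 and 837 CPM), and the fast calcium pump ATP2A1 had a log2 difference of 1.29 ± 0.55 (adjusted p = 0.091). Genes of calcium release and excitation rose in 11 of 22 tested members and fell in none. The 11 became 5 without 24 h replicate 3, 6 without 24 h replicate 4, 5 without 48 h replicate 2 and 5 without 48 h replicate 4. HRC, the histidine-rich calcium-binding protein of the sarcoplasmic reticulum, was at 90.1, 87.0, 50.1 and 69.8 CPM and then 95.2, 522, 253 and 557 CPM, with replicate 1 just above 24 h, replicate 3 intermediate and replicates 2 and 4 among the controls (407 to 703 CPM). Its log2 change was 2.26 ± 0.40 (adjusted p = 0.00024). STIM1, the calcium sensor of the reticulum, and CACNB1, a subunit of the voltage sensor, rose by 1.23 ± 0.28 and 1.35 ± 0.32. No calcium gene was called without replicates 2 and 4. SMYD1, a methyltransferase and myosin chaperone, rose from 58.8 to 82.8 to 131, 507, 222 and 447 CPM (log2 2.28 ± 0.48). TNNI1 and MYH7B missed the threshold without 48 h replicate 4 alone (adjusted p = 0.22 and 0.15 in turn). ATP2A2 kept its call without 48 h replicate 4 alone, with a log2 change of 1.75. MYBPC1 kept its call without 48 h replicate 4 alone, with a log2 change of 1.78.

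**Figure D2:**
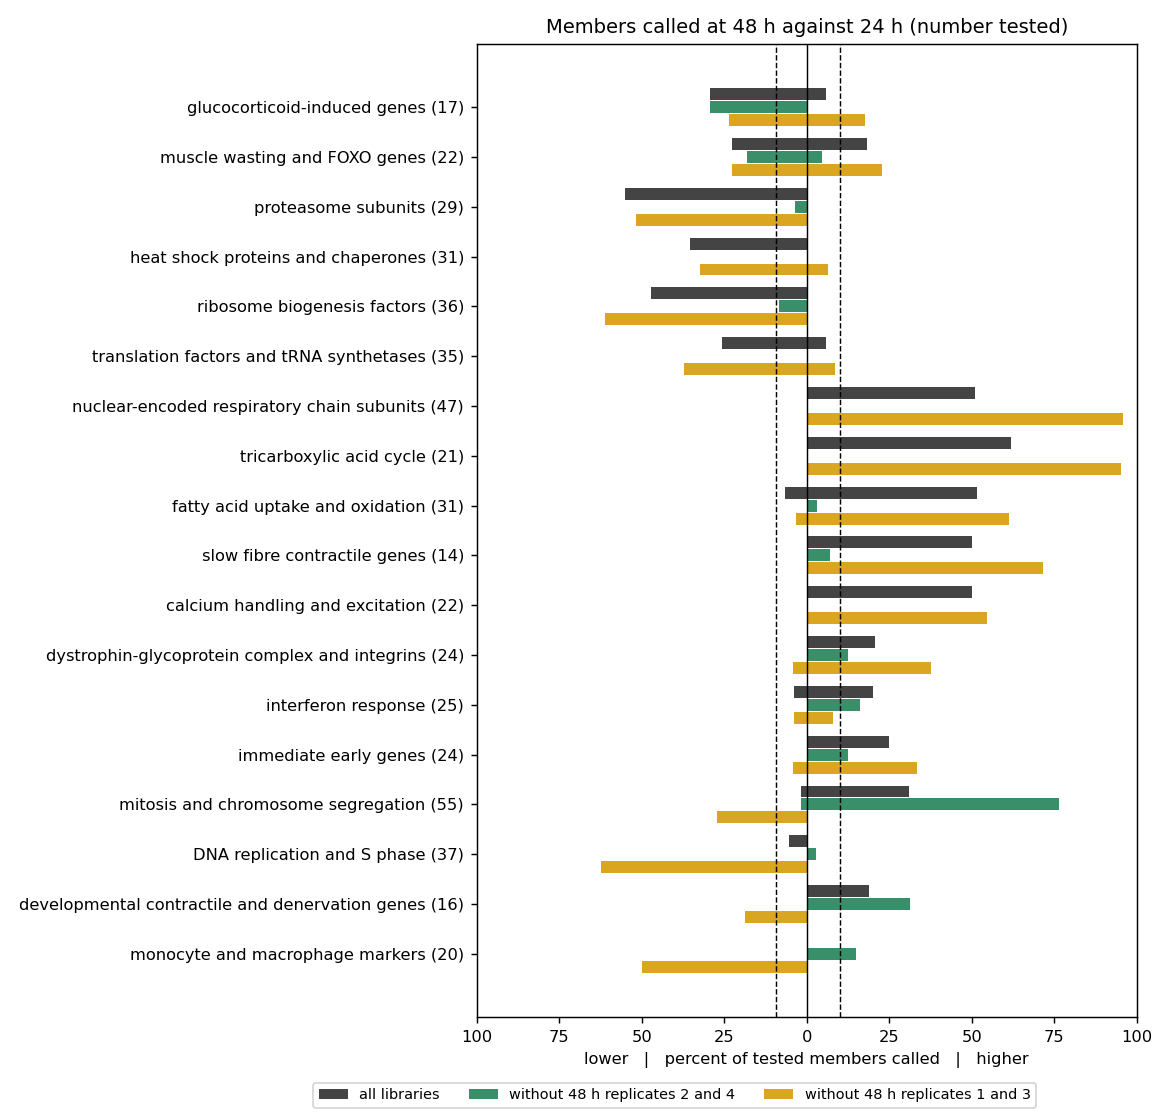
Members called higher (right) or lower (left), in percent of those tested, for 18 gene lists with all libraries, without 48 h replicates 2 and 4 and without 48 h replicates 1 and 3; dashed lines give the percent called among all genes with all libraries. Respiratory, tricarboxylic acid and calcium genes have no call without replicates 2 and 4, and mitotic genes none that is higher without replicates 1 and 3.

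Mitotic genes divided the libraries the other way. CCNB1 (chromosome 16, 47338239 to 47348385), the cyclin that drives entry into mitosis, was at 1.59, 1.10, 1.79 and 1.12 CPM at 24 h and 35.4, 1.15, 13.4 and 0.869 CPM at 48 h. Replicates 1 and 3 were far above all 4 libraries of 24 h and all 9 controls (0.274 to 3.14 CPM), and replicates 2 and 4 were at the level of both. The log2 change was 3.20 ± 0.73 (adjusted p = 0.0025) with all libraries, 4.14 ± 0.57 without replicates 2 and 4 and -0.44 ± 0.68 without replicates 1 and 3. PLK1, the main polo-like kinase of mitosis, was at 17.7, 0.938, 8.80 and 1.16 CPM at 48 h from 1.59, 0.807, 1.64 and 0.504 CPM (log2 2.70 ± 0.66). The kinetochore protein CENPF was at 40.8, 0.625, 21.2 and 0.386 CPM from 2.10, 1.87, 2.86 and 1.19 CPM, and the cytokinesis motor KIF23 at 31.5, 5.21, 16.0 and 3.28 CPM from 4.20, 2.86, 6.65 and 3.02 CPM. HMMR, a hyaluronan receptor and spindle protein, had 14.8, 0.729, 8.03 and 0.773 CPM, and CCNB3, a B-type cyclin, 8.28, 0.417, 4.63 and 0.193 CPM. Each of these was high in replicates 1 and 3 and low in replicates 2 and 4. Over the mitosis list 17 of 55 tested members rose and 1 fell, with a median of 1.39. The 17 became 9 without 24 h replicate 1, 10 without 24 h replicate 2, 6 without 24 h replicate 4, 2 without 48 h replicate 1, 28 without 48 h replicate 2, 9 without 48 h replicate 3 and 27 without 48 h replicate 4. Without replicates 2 and 4, 42 were higher with a median of 2.29. Without replicates 1 and 3 none was higher and 15 were lower, with a median of -1.18. The exception in direction was BUB3, a checkpoint protein with further roles in splicing, at 77.7, 71.5, 83.4 and 75.2 and then 61.3, 58.5, 48.2 and 54.5 CPM (log2 -0.47 ± 0.12). The summed level of the list was 1498, 277, 849.8 and 246 CPM in the 4 libraries of 48 h, 383 to 537 CPM at 24 h and 230.1 to 344 CPM in the controls. CCNB1 kept its call without 48 h replicate 1 alone, with a log2 change of 1.89. PLK1 kept its call without 48 h replicate 1 alone, with a log2 change of 1.71.

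Genes of DNA replication did not share this rise. None of 37 tested members was higher and 2 were lower, the median was -0.21, and 27 were above all controls at 24 h. The 2 became 13 without 48 h replicate 1, 1 without 48 h replicate 2 and 0 without 48 h replicate 4. Among all 9411 genes, 1444 were above all controls at 24 h and overlapped them at 48 h. That count leaves out genes above all controls at both times. MCM7, of the replicative helicase, was at 61.0, 55.3, 68.9 and 55.3 CPM at 24 h and 64.4, 25.0, 38.6 and 21.8 CPM at 48 h, so that replicate 1 kept the 24 h level and replicates 2 and 4 lay at or just below the controls (22.1 to 31.8 CPM). RFC3, of the clamp loader, changed by -0.69 ± 0.20 and MCM7 by -0.68 ± 0.21. The fit without replicates 2 and 4 had 1 member higher and none lower. That without replicates 1 and 3 had 23 of 37 lower, with a median of -1.28. RFC3 missed the threshold without 48 h replicate 4 alone (adjusted p = 0.085). MCM7 missed the threshold without 48 h replicate 2 or 4, each alone (adjusted p = 0.095 to 0.11). MCM7 kept its call without 48 h replicate 1 alone, with a log2 change of -1.08.

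Of single genes of regenerating or denervated fibres, CHRNA1, MEF2C and NEFH were highest in 48 h replicates 1 and 3. TNNT2 and MYH3 were highest in replicate 3, with replicate 2 above replicate 1. CHRNA1 (chromosome 15, 80673072 to 80692256), the acetylcholine receptor subunit that spreads over fibres during regeneration and denervation, was at 21.6, 24.7, 17.9 and 13.0 CPM and then 146, 30.0, 173 and 25.1 CPM, with controls at 11.9 to 38.8 CPM. Replicates 1 and 3 were well above every other library named here, and the log2 change of 2.28 ± 0.47 (adjusted p = 0.00096) was 3.05 ± 0.41 without replicates 2 and 4. MEF2C, a myocyte enhancer factor of muscle differentiation, was at 142, 169, 287 and 201 and then 878, 428, 862 and 248 CPM (log2 1.60 ± 0.32, adjusted p = 0.00072). TNNT2, cardiac and embryonic troponin T, was at 1.66, 2.08, 13.7 and 1.35 CPM at 48 h, high in replicate 3 only, from 1.23, 1.10, 1.22 and 0.540 CPM, and the embryonic myosin MYH3 rose from 14.7, 16.6, 19.0 and 14.6 to 35.2, 46.2, 85.3 and 28.7 CPM (log2 1.59 ± 0.49). The heavy neurofilament gene NEFH, which passed the filter on low counts without replicates 2 and 4, was at 0.0724, 0.110, 0.214 and 0.324 CPM and then 8.21, 0.625, 10.5 and 0.579 CPM against 0 to 0.549 CPM in controls. It entered that fit through replicates 1 and 3, where it is high, so its values are a description. PIMREG, a mitotic regulator that passed likewise, was at 0.651, 0.147, 0.214 and 0.0360 and then 8.64, 0.417, 4.55 and 0.290 CPM. MYF6, a myogenic factor of mature fibres, fell from 553, 331, 337 and 437 to 236, 111, 249.5 and 189 CPM (log2 -1.08 ± 0.29), and MYOG, which starts differentiation, had a log2 difference of -0.84 ± 0.31 (adjusted p = 0.053). Of the developmental contractile list 3 of 16 rose, and 5 without replicates 2 and 4. The 3 became 1 without 24 h replicate 4 and 1 without 48 h replicate 3. MYH3 missed the threshold without 24 h replicate 1 or 4 or 48 h replicate 3, each alone (adjusted p = 0.052 to 0.10).

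No macrophage marker passed the test with all libraries, although their levels differed by library. Of 20 tested members 17 were above all controls at 24 h and 4 at 48 h. Their median log2 change was -0.06. Among all 9411 genes, 1444 were above all controls at 24 h and overlapped them at 48 h, which leaves out genes above at both times. Without replicates 2 and 4, 3 members were higher and 0 lower, and without replicates 1 and 3, 0 were higher and 10 lower. The summed level of the list was 475 to 1105 CPM at 24 h, 1529, 262, 1146 and 253 CPM in the libraries of 48 h and 135 to 315 CPM in the controls. By this sum replicate 1 was above all of 24 h, replicate 3 only just so, and replicates 2 and 4 inside the control range. The median log2 difference of members from the control median was 3.10, 0.635, 2.72 and 0.527 in 48 h replicates 1 to 4. It was 1.49 to 2.83 at 24 h and at most 0.625 in the controls. By this median replicate 3 was within the 24 h range and replicate 2 just above the controls. No defining marker was at 0. CD68, a lysosomal marker of macrophages, was at 20.2, 16.7, 33.8 and 22.8 and then 44.4, 5.73, 41.9 and 3.67 CPM, and CSF1R, the receptor of their growth factor, at 53.6, 37.4, 67.0 and 35.1 and then 146, 21.5, 111 and 27.4 CPM. MARCO, a scavenger receptor, was at 52.4, 1.15, 19.1 and 1.26 CPM at 48 h, 3.01 to 5.36 CPM at 24 h and at most 0.769 CPM in the controls, and without replicates 2 and 4 its log2 change was 3.02 ± 0.74 (adjusted p = 0.014). With all libraries MARCO had a log2 difference of 2.08 (adjusted p = 0.074). The list members TYROBP and LYZ had -1.45 and -1.05 (adjusted p = 0.066 and 0.23). ACP5, the tartrate-resistant phosphatase of osteoclasts and activated macrophages, rose from 7.53, 5.68, 12.7 and 3.21 to 47.0, 3.54, 54.5 and 1.35 CPM (log2 1.89 ± 0.67, adjusted p = 0.043), and the lysosomal enzyme GUSB from 18.4, 17.0, 25.9 and 15.2 to 60.1, 14.0, 57.3 and 14.7 CPM (log2 0.94 ± 0.31). In the list of ACP5, of osteopontin, TREM2 and GPNMB macrophage genes, 2 of 16 tested members rose and 2 fell. In the lysosomal list of GUSB, 1 of 38 rose and 3 fell. Of the complement list 2 of 10 rose, C1QB (19.1, 15.8, 8.43 and 11.4 and then 56.0, 16.0, 54.3 and 30.6 CPM) and C1QA (log2 1.26 ± 0.39), chains of the C1q complex that macrophages secrete. The part of cell makeup in the mitotic and regeneration genes was not tested. ACP5 and GUSB missed the threshold without 24 h replicate 1, 2 or 4 or 48 h replicate 1 or 3, each alone (adjusted p = 0.079 to 0.21 and 0.065 to 0.17 in turn). C1QA missed the threshold without 24 h replicate 3 or 48 h replicate 1 or 3, each alone (adjusted p = 0.066 to 0.091).

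Markers of other cell types had single members called, beside 10.2% of all genes that rose. Neutrophil markers had 1 of 8 tested members higher, the gelatinase MMP9 (1.74, 0.403, 2.00 and 0.288 and then 11.8, 2.29, 7.33 and 0.966 CPM), and their summed level was 20.3 to 75.6 CPM at 24 h and 59.5, 11.1, 37.1 and 4.92 CPM at 48 h. That 1 call became 0 without 24 h replicate 2, 0 without 24 h replicate 4 and 0 without 48 h replicate 1. S100A8, a defining neutrophil gene, was at 0.941, 0.880, 1.22 and 0.396 CPM at 24 h and 0.858, 0.104, 0.309 and 0 CPM at 48 h, low levels in all 8 libraries. JCHAIN, the joining chain of antibodies made by plasma cells, rose in all 4 libraries, from 4.34, 3.92, 2.36 and 2.84 to 27.2, 8.54, 19.6 and 10.4 CPM (log2 2.29 ± 0.41, adjusted p = 0.00027). Of 16 endothelial markers 2 rose, with a median of 0.58. The transcription factor SOX17, of arterial endothelium, was at 5.79, 4.47, 1.93 and 4.11 and then 12.8, 27.4, 19.3 and 45.0 CPM (log2 2.67 ± 0.79), and the sialomucin EMCN changed by 0.71 ± 0.24. Angiogenic genes rose in 5 of 20 members. The 5 became 3 without 48 h replicate 4. The platelet-derived growth factor gene PDGFB was at 37.3, 34.4, 24.2 and 25.1 and then 44.8, 85.2, 49.9 and 100.4 CPM, without overlap (log2 1.21 ± 0.20, adjusted p = 0.0001), and the Notch ligand DLL4 at 14.3, 13.7, 17.1 and 10.9 and then 28.7, 65.6, 32.5 and 68.0 CPM (log2 1.80 ± 0.35). ANGPT1, the ligand that stabilises vessels, rose by 2.02 ± 0.47, and VEGFA by 1.51 ± 0.44, the latter through replicates 2 and 4 (54.5, 169, 48.6 and 275 CPM). Pericyte marker RGS5 rose by 1.02 ± 0.29. SOX17 missed the threshold without 24 h replicate 3 or 48 h replicate 4, each alone (adjusted p = 0.054 to 0.068). EMCN missed the threshold without 24 h replicate 1, 3 or 4 or 48 h replicate 2 or 4, each alone (adjusted p = 0.080 to 0.16). VEGFA and RGS5 missed the threshold without 48 h replicate 4 alone (adjusted p = 0.16 and 0.088 in turn).

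Matrix lists also had single members called, beside 10.2% of all genes higher and 9.22% lower. Of 15 collagens 2 rose, COL16A1 (20.0, 18.1, 18.0 and 19.8 and then 41.4, 30.1, 58.8 and 36.6 CPM, log2 1.14 ± 0.30) and the basement membrane collagen COL15A1 (105, 350.5, 124 and 386 CPM at 48 h, high in replicates 2 and 4). The 2 collagens became 1 without 24 h replicate 1, 1 without 24 h replicate 2, 1 without 24 h replicate 3, 1 without 24 h replicate 4, 1 without 48 h replicate 2 and 1 without 48 h replicate 4. PLOD1, which hydroxylates collagen lysines for cross-linking, was at 50.4, 52.1, 49.1 and 43.3 and then 79.8, 80.5, 81.0 and 79.7 CPM, among the most even rises of the comparison and above the control range of 35.0 to 73.1 CPM (log2 0.72 ± 0.18, adjusted p = 0.0049). PLOD3 changed by -0.89 ± 0.26. The proteoglycan ASPN (asporin) rose by 1.24 ± 0.41. Fibroblast markers gave 2 of 18 higher, GSN (gelsolin) with 1.15 ± 0.39 and the Wnt antagonist SFRP4 with 1.64 ± 0.60. Adipocyte markers gave 2 higher and 2 lower of 15, nerve markers 1 and 1 of 7, keratinocyte markers 1 and 0 of 7, mast cell markers 1 and 0 of 3, and erythrocyte, antigen presentation and endothelial activation lists none of 4, 7 and 10. PLOD3 missed the threshold without 48 h replicate 2 or 4, each alone (adjusted p = 0.081 to 0.085). ASPN missed the threshold without 24 h replicate 1, 2 or 3 or 48 h replicate 3 or 4, each alone (adjusted p = 0.061 to 0.085). GSN missed the threshold without 24 h replicate 1, 3 or 4 or 48 h replicate 2 or 4, each alone (adjusted p = 0.063 to 0.19). SFRP4 missed the threshold without 24 h replicate 1, 3 or 4 or 48 h replicate 2, 3 or 4, each alone (adjusted p = 0.058 to 0.33).

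Some calls followed the libraries of large total. ND4L, a mitochondrially encoded subunit of complex I, was at 1.88, 17.7, 1.57 and 23.8 CPM at 24 h and 1.16, 2.40, 1.62 and 3.38 CPM at 48 h, high in 24 h replicates 2 and 4. Its log2 change of -2.42 ± 0.76 was 0.23 ± 0.45 with the library set as a term. RPL23A, a ribosomal protein with many copies, was at 44.9, 275, 50.5 and 269 and then 60.6, 56.9, 52.5 and 56.3 CPM, -1.50 ± 0.49 and 0.42 ± 0.22 in the same 2 fits. With the library set as a term 842 genes were called, of which 764 were among the 1832, and without 24 h replicates 2 and 4, 788, of which 761 were. The background for list members was 447 genes higher and 395 lower of 9411 with that term. Without 24 h replicates 2 and 4 it was 373 higher and 415 lower of 9418. TSC22D3, UBB, TRIM63, SQSTM1, STAMBPL1, MSI2 and SGCD were called in both of these fits. With the set term respiratory genes gave 19 of 47 higher and mitotic genes 1 of 55. The term is no independent check, as set and time were partly confounded and the sets were cut on these same counts. The lists that fell kept few calls with that term, 3 of 29 proteasome subunits, 1 of 31 chaperones and 4 of 36 ribosome biogenesis factors. Without 24 h replicates 2 and 4 they had 3, 4 and 12 members lower, in the same order. ND4L missed the threshold without 24 h replicate 2 or 4 or 48 h replicate 1, 2 or 3, each alone (adjusted p = 0.051 to 0.13). RPL23A missed the threshold without 24 h replicate 2 or 4 or 48 h replicate 2, 3 or 4, each alone (adjusted p = 0.063 to 0.14).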

How the data were processed

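RNA of frozen muscle was read as 150 bp pairs, per the labels' protocols. The submitters' processing notes name HISAT2 2.2.1, HTSeq, Trimmomatic, FastQC, MultiQC and Sscrofa11.1. No strand setting for counting is stated in them, so antisense neighbours and near-identical copies are uncertain. The authors deposited 1 table of unnormalized counts for 9418 gene symbols. Its smallest row maximum is 101 counts, so low genes had been removed and column totals are not the sequencing depth. A level of 3 counts corresponds to 0.108 to 0.378 CPM, depending on the library, and covers counting error alone.

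Titles gave the groups. The test was the quasi-likelihood test of edgeR 4.0.16 (limma 3.58.1, R 4.3.3) with TMM factors, after filterByExpr, which left 9411 genes. The model by group covered all 37 libraries, and the contrast of 48 h with 24 h was adjusted by Benjamini-Hochberg at 0.05. In simulated data, the test called 59% of 100 genes with a log2 difference of 1, 93% of 100 with a difference of 2 and 9 of 9211 without one, over 9411 genes. Changed genes were drawn from those with a mean of at least 5 CPM. Simulated counts varied independently around a common mean per group. The division of the 48 h libraries and the library sets were not simulated, so these rates do not cover them. No pair of libraries within 24 h or 48 h was as alike as sampling noise.

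The comparison, gene lists and library sets were chosen with earlier results of these data known. The sets split libraries by a total above 20 M, then C1QBP above 8 CPM, then NDUFAF8 under 4 CPM, then ND6 at most 32 CPM. ND6 is also a member of the list of mitochondrially encoded respiratory genes. Genes were named by rule: the 15 largest rises and falls among calls whose libraries did not overlap and whose higher mean was 5 CPM or more, the 10 smallest p-values, up to 4 members of each list by p, and the 5 largest rises and falls without 48 h replicates 2 and 4. A few genes chosen by this rule are left out, other list members are given by counts, and muscle and macrophage markers (CKM, MYH7, CD68, CSF1R) are added as defining genes. Coordinates are RefSeq gene spans in Sscrofa11.1, matched by symbol for 8936 genes. Alternatives were other size factors, filters, DESeq2 1.42.0, limma-voom, fewer libraries, a replicate block, the library set as a term and libraries left out.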

Additional observations from a re-analysis of the deposited data

Results flagged for a closer look

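Among 320 groups of 4 libraries (160 genes at 24 h and at 48 h), 12 held a library far from the other 3. This is a smaller share than the 1 in 20 that chance alone would give, so the libraries below are listed as a description only. A library counted as far when its gap to the nearest other took up more of the group's range, on the log2 scale, than Dixon's critical value.

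At 24 h, replicate 3 was the low library for 4 genes. Its complement gene C1QA was at 4.07 CPM, the dystrobrevin DTNA at 44.7 CPM, the metallothionein MT1A at 0.786 CPM and the respiratory gene UQCRFS1 at 137 CPM. Replicate 4 of 24 h stood apart for 3 genes, high for the tetraspanin CD9 (1269 CPM) and the receptor MST1R (64.6 CPM) and low for the embryonic troponin TNNT2 (0.540 CPM). Replicate 2 of 24 h was high for the kinase SBK2 (0.733 CPM).

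At 48 h, replicate 1 was high for the chaperonin subunit CCT6A (98.5 CPM) and the RNA sensor IFIH1 (16.9 CPM). Replicate 3 of 48 h was low for the interleukin-6 receptor IL6R (19.0 CPM) and high for TNNT2 (13.7 CPM). Neither 48 h replicate 2 nor replicate 4 was alone at an end of its group in this sense for any of the 160 genes.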

How the results depend on the processing

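Of 1832 genes changed with all libraries, RLE and upper-quartile factors, no filter, a mean of at least 5 CPM, DESeq2, limma-voom and the 28 injured libraries gave 1727 to 2167. Scaling by column totals gave 1264 (45.5% higher, against 52.6%) and moved the median log2 change of all genes from 0.04 to -0.07, and 13 of 136 reported changes lost their call. The 8 libraries alone gave 903 and the library set as a term 842. That term without 48 h replicates 2 and 4 gave 185, and 24 h libraries of the set of 48 h only, which leaves replicate 1 assumed to vary like the other groups, gave 56. Without 48 h replicates 2 and 4 the count was 551, 63 of the 136 lost their call in the same direction and 3 changed sign. Among alternatives chosen after the data were seen, it was 2879 without 48 h replicates 1 and 3 and 788 without 24 h replicates 2 and 4. Single libraries left out gave 1048 to 2442. The cause of these differences was not tested, beyond the fewer libraries in several of the fits.

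Equal replicate numbers were not shown to pair libraries: deviations of same-numbered libraries of 24 and 48 h correlated at -0.073, 0.446, 0.308 and 0.142, and not every library correlated best with its own number. A replicate block gave 1720 calls in the 28 injured libraries and 285 in the 8 libraries.

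Reversed log2 values were -1.54 (ACP5), -0.44 (CCNB1), -0.40 (GUSB), -1.85 (MARCO) and -0.057 (PLK1) without 48 h replicates 1 and 3, and -0.10 (ATP2A1), -0.078 (UQCRFS1) and -0.15 (SDHB) without replicates 2 and 4. With the set term RPL23A was at 0.42 and ND4L at 0.23, with that term and without the pair RPL23A was at 0.42 and ATP2A1 at -0.28, with 24 h libraries of that set only they were at 0.32 (RPL23A) and 0.16 (ND4L), and without 24 h replicates 2 and 4 at 0.24 (RPL23A) and 0.29 (ND4L). The cause was not tested. None of these reversed values passed the threshold. Low levels limit SBK2, KBTBD13, NEFH and MT1A.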
